A study of Mus musculus with 367 samples.

Results

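Oxidative phosphorylation is the last step of respiration in mitochondria. Complexes I and II pass electrons from NADH and succinate to ubiquinone, complex III hands them to cytochrome c, and complex IV, cytochrome c oxidase, gives them to oxygen. Complexes I, III and IV pump protons, and complex V, the ATP synthase, uses the gradient to make ATP. Most subunits are encoded in the nucleus and imported, while the small circular mitochondrial genome encodes core subunits of every complex except II.

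The genes described here are 100 of the 50600 genes in the tables. They were chosen by symbol and not by any measured value, as the protein-coding genes whose names start with Nduf followed by a, b, c, s or v, Sdh followed by a to d, Uqcr, Cox followed by 4 to 8, or Atp5, together with the 13 protein-coding genes of the mitochondrial genome. The 87 nuclear members lie on 19 chromosomes. Complex I has 44 members (37 nuclear and 7 mitochondrial), complex II has 8, all nuclear, complex III has 9 (8 and 1), complex IV has 20 (17 and 3) and complex V has 19 (17 and 2). Of the 100, 95 are subunits. The choice by name also takes in 5 that are not, the complex II assembly factors Sdhaf1 to Sdhaf4 and Atp5s, whose product is also known as factor B. Ndufa4 is counted with complex I by its name, although its protein is found with complex IV. The isoforms Cox4i2 and Ndufa4l2 and the Ndufaf assembly factors were left out.

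The cells came from large skin wounds of Sm22-Cre;tdTomato mice of mixed background, 3 to 8 weeks old, in which squares of 1.5 cm by 1.5 cm had been excised from the back. Sm22-Cre places Cre under the promoter of Tagln, a gene of contractile cells, and tdTomato marks any cell in which that promoter has been active. Viable cells with high tdTomato were sorted at 12, 15 and 21 days after wounding and captured singly in microfluidic chips for full-length RNA sequencing. All groups carried both transgenes and were wounded, so there was no unwounded or unmarked control. Each time point drew on 2 to 3 mice, whose wounds were combined. There were 3 captures at day 12, 2 at day 15 and 2 at day 21, and nothing states that the captures of a day came from different mice. The capture was used as the replicate, so the p values measure the spread between captures, which may be technical.

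Of 367 cells, 339 were kept, after cells with few fragments or with over 11000 genes above 0 had been set aside. Kinds of cell were set by 3 genes. Matrix cells had Col1a1, a collagen of fibroblasts, at 1000 FPKM or more with Rgs5 under 100 and Tyrobp under 50. Mural cells had Rgs5, a gene of pericytes, at 500 or more with Tyrobp under 50, and myeloid cells had Tyrobp, an adaptor of immune receptors, at 500 or more. FPKM is the number of fragments relative to transcript length and to all aligned fragments of a cell. The genes of a cell thus share a total of fragments, while their summed FPKM is not fixed. There were 214 matrix, 58 mural and 29 myeloid cells, and 38 cells had no kind. Matrix cells came from all 7 captures, with between 18 and 57 each. The median matrix cell of a capture had between 930735 and 2319900 estimated fragments, with the highest medians in the captures of day 21.

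The marker list of each kind includes the gene that set it, so that its counts and sums are in part fixed by that choice. With this limit the lists fitted the labels in part. All 7 mural markers (such as Notch3, Kcnj8 and Abcc9) had a mean of at least 10 FPKM in mural cells, with a summed mean of 8401 FPKM against 12.09 in matrix cells. All 9 myeloid markers did so in myeloid cells, at 29532 FPKM against 38.1 in matrix cells. Matrix markers were not absent from the other kinds. Their summed mean was 32826 FPKM in matrix, 7914 in mural and 3439 in myeloid cells, and 20 of 58 mural and 5 of 29 myeloid cells had Col1a1 at 1000 FPKM or more. The 3 adipocyte markers summed to 74.8 FPKM in myeloid, 0.0486 in matrix and 0.0762 in mural cells. Any of them was above 0 in 10.3% of myeloid, 13.6% of matrix and 17.2% of mural cells. In myeloid cells 1 of the 3 was at 0 and only 1 had a mean of at least 10 FPKM. Counted from 0.5 times each limit to the limit and from there to 2 times it, 17 and 14 cells lay near 1000 FPKM of Col1a1, 2 and 3 near 500 of Rgs5 and 0 and 0 near 500 of Tyrobp. Near the upper limits of matrix cells there were 8 and 9 for Rgs5 at 100 and 2 and 0 for Tyrobp at 50. Members were tested in mural against matrix cells in the 5 captures with at least 3 cells of both kinds, and in myeloid against matrix cells in 4.

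Some of the mitochondrial members overlap a neighbour, while others, such as mt-Co1 and mt-Cytb, overlap no other member. For those that overlap, the sequences show why their values cannot be fully separated: a fragment within the overlap belongs to both genes. The 2 longest overlaps on the plus strand are printed here, and mt-Atp6 (7927 to 8607) and mt-Co3 (8607 to 9390) share 1 more base. The sequences are read from GRCm38 on the plus strand, and the capitals mark the start codon of the downstream gene. The last bases, taa, end the upstream gene.
mt-Atp8 and mt-Atp6, chrM:7927-7969: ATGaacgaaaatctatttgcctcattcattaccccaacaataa
mt-Nd4l and mt-Nd4, chrM:10144-10173: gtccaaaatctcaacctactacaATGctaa
The first overlap is 43 bases long and the other 7. The coding gene mt-Atp8 is 204 bases long in all and mt-Nd4l 297 bases. Both are shorter than the 300 bases assumed for a fragment, so that their lengths in the FPKM, and their levels beside longer genes, are uncertain. The library kit does not mark strand, and mt-Nd6, which lies on the minus strand from 13552 to 14070, shares its last bases with the end of mt-Nd5 (11742 to 13565) and cannot be told from antisense RNA there.

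The nuclear members were read for motifs in their promoters, since genes of this pathway are known to carry sites of NRF1, of the ETS factor GABPA, of YY1 and of ESRRA. RefSeq (GRCm38.p6) gave 76 promoters for 71 of the 87 nuclear members, each running from 250 bases before to 50 bases after the start. On either strand, the NRF1 core GCGCATGC was in 10 of these 76 (13.2%) and in 2.71% of all 32851 promoters. The ETS site CCGGAAG was in 19 (25%) against 8.86%, the YY1 core AAGATGGC in 9 (11.8%) against 2.75%, and the ESRRA site TCAAGGTCA in 2 (2.63%) against 0.423%. In promoters of protein-coding genes these shares were 3.66%, 11.9%, 3.11% and 0.338%. Printed here are the 250 bases before the start of Cox6a1, the nuclear member with the highest level, of Atp5k, a subunit of the synthase with the same NRF1 core, and of Ndufa4, the member with the second lowest p in mural cells. All 3 genes lie on the minus strand, the sequences run in the direction of the gene, and capitals mark the motifs.
Cox6a1, chr5:115348959-115349208: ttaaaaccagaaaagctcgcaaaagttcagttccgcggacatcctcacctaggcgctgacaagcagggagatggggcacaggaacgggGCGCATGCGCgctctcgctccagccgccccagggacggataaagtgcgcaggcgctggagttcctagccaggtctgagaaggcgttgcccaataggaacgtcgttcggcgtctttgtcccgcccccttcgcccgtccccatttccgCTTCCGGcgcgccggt
Atp5k, chr5:108434400-108434649: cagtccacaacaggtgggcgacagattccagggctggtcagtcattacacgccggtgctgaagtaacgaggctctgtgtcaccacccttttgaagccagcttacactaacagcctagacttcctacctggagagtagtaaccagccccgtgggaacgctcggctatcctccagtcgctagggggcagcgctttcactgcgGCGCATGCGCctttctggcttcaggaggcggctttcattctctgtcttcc
Ndufa4, chr6:11907451-11907700: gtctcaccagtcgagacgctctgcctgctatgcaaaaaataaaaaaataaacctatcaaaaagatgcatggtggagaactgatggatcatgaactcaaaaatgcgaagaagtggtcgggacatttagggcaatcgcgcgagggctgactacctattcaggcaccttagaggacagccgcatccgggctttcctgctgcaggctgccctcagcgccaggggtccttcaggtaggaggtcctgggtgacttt
Cox6a1 held the NRF1 core on both strands, overlapping in the same run of letters, and an ETS site. Atp5k held the NRF1 core in the same overlapping form, and the Ndufa4 window held none of the 4 motifs. A match describes letters and not binding.

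The 6 most abundant members were mitochondrial. In matrix cells the highest means over all 214 cells were 11166 FPKM for mt-Atp6, a proton channel subunit of complex V, 9174 for mt-Cytb, the cytochrome b of complex III, and 8890 and 7822 for mt-Co2 and mt-Co1, the catalytic core of complex IV. mt-Atp8 (5248) and mt-Nd1 (5087) came next. The other complex I genes were lower, with mt-Nd4 at 1952, mt-Nd2 at 673, mt-Nd3 at 541, mt-Nd5 at 537 and mt-Nd6 at 336 FPKM, and mt-Co3, the remaining subunit of complex IV, had 1719. The order was not fixed between neighbours. Over the 7 captures mt-Cytb had 8209 ± 4001 FPKM (SD) and mt-Co2 8251 ± 3334, so that they did not differ beyond their spread, and mt-Nd2 (686 ± 288), mt-Nd3 (580 ± 325) and mt-Nd5 (477 ± 223) overlapped as well. mt-Nd4l stood apart at 16.4 FPKM and was above 0 in 11 of 214 matrix cells, while mt-Nd4, which follows it, was above 0 in all 214.

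Nuclear members ranged widely in level, and a few were at or near 0. Of the 87, 62 had a mean of at least 100 FPKM in matrix cells, 9 were under 10 and 5 under 1, and their median was 183 FPKM. The median member was above 0 in 80.4% of matrix cells. The highest were Cox6a1 (1656 FPKM) and Cox6c (1002), small subunits around the core of complex IV, and Ndufa3 (808), an accessory subunit of complex I. Members were short, with a median transcript length of 732 bases against 1727 for protein-coding genes, and near-identical processed copies are known for several of them, so that single levels carry the uncertainty of shared reads.

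Within each complex the levels spanned orders of magnitude. Complex I ran from mt-Nd1 down to mt-Nd4l. Complex II ran from Sdhb, its iron-sulfur subunit, at 190 FPKM down to the assembly factor Sdhaf1 at 0.782, which was above 0 in 21 of 214 matrix cells. The subunits of complex II alone spanned less, from Sdhb down to Sdhc at 54.6 FPKM. In complex III the lowest was the iron-sulfur subunit Uqcrfs1 at 31.9 FPKM, with 14.1, 50.2 and 16.3 in the captures of day 12, 21.18 and 48.9 at day 15 and 12.99 and 61.7 at day 21. Complex IV ran from mt-Co2 to Cox6a2 among members above 0 in matrix cells, with Cox7b2, Cox8b and Cox8c at 0 there, and complex V from mt-Atp6 to Atp5s at 8.45 FPKM, a nuclear gene above 0 in 20 of 214 matrix cells.

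Several subunits of complex IV have isoforms, and in each set the isoform found in most tissues had the higher level in these cells. Cox6a1 was above 0 in 201 matrix cells and Cox6a2, the isoform of heart and skeletal muscle, in 1, at 0.00626 FPKM. Cox7a2 (263 FPKM) was above 0 in 178 matrix cells and Cox7a1 (6.55), another muscle isoform, in 12. Cox8a (344) was above 0 in 185 cells, whereas Cox8b and Cox8c were listed at 0 in all 339 kept cells, a count of 0 that leaves room for at most 0.885% of cells, by counting error alone. Cox7b had 172 FPKM and Cox7b2, known from testis, was above 0 in 2 kept cells, both mural.

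Cox6b2, another testis isoform, was not as rare as Cox7b2. It was above 0 in 16 of 214 matrix and 16 of 58 mural cells. Its mural means were 6.09, 69.0 and 65.4 FPKM at day 12, 1.16 at day 15 and 1.05 at day 21, against 0.645, 5.24, 12.5, 2.05 and 0 in the matrix cells of the same captures. It was higher in mural cells in 4 of 5 captures, with a log2 difference of 1.68 (SE 0.72) that did not pass the test (adjusted p = 0.314, limma). Its partner Cox6b1 had 287 FPKM in matrix cells. Of the 3 genes for the same c subunit of the synthase ring, Atp5g1 had 390 FPKM in matrix cells, Atp5g3 208 and Atp5g2 70.1. Cox7a2l, which helps complexes III and IV to join, had 88.5 FPKM, and Cox4i1, the ubiquitous form of the subunit that Cox4i2 can replace, 645.

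**Figure D1:**
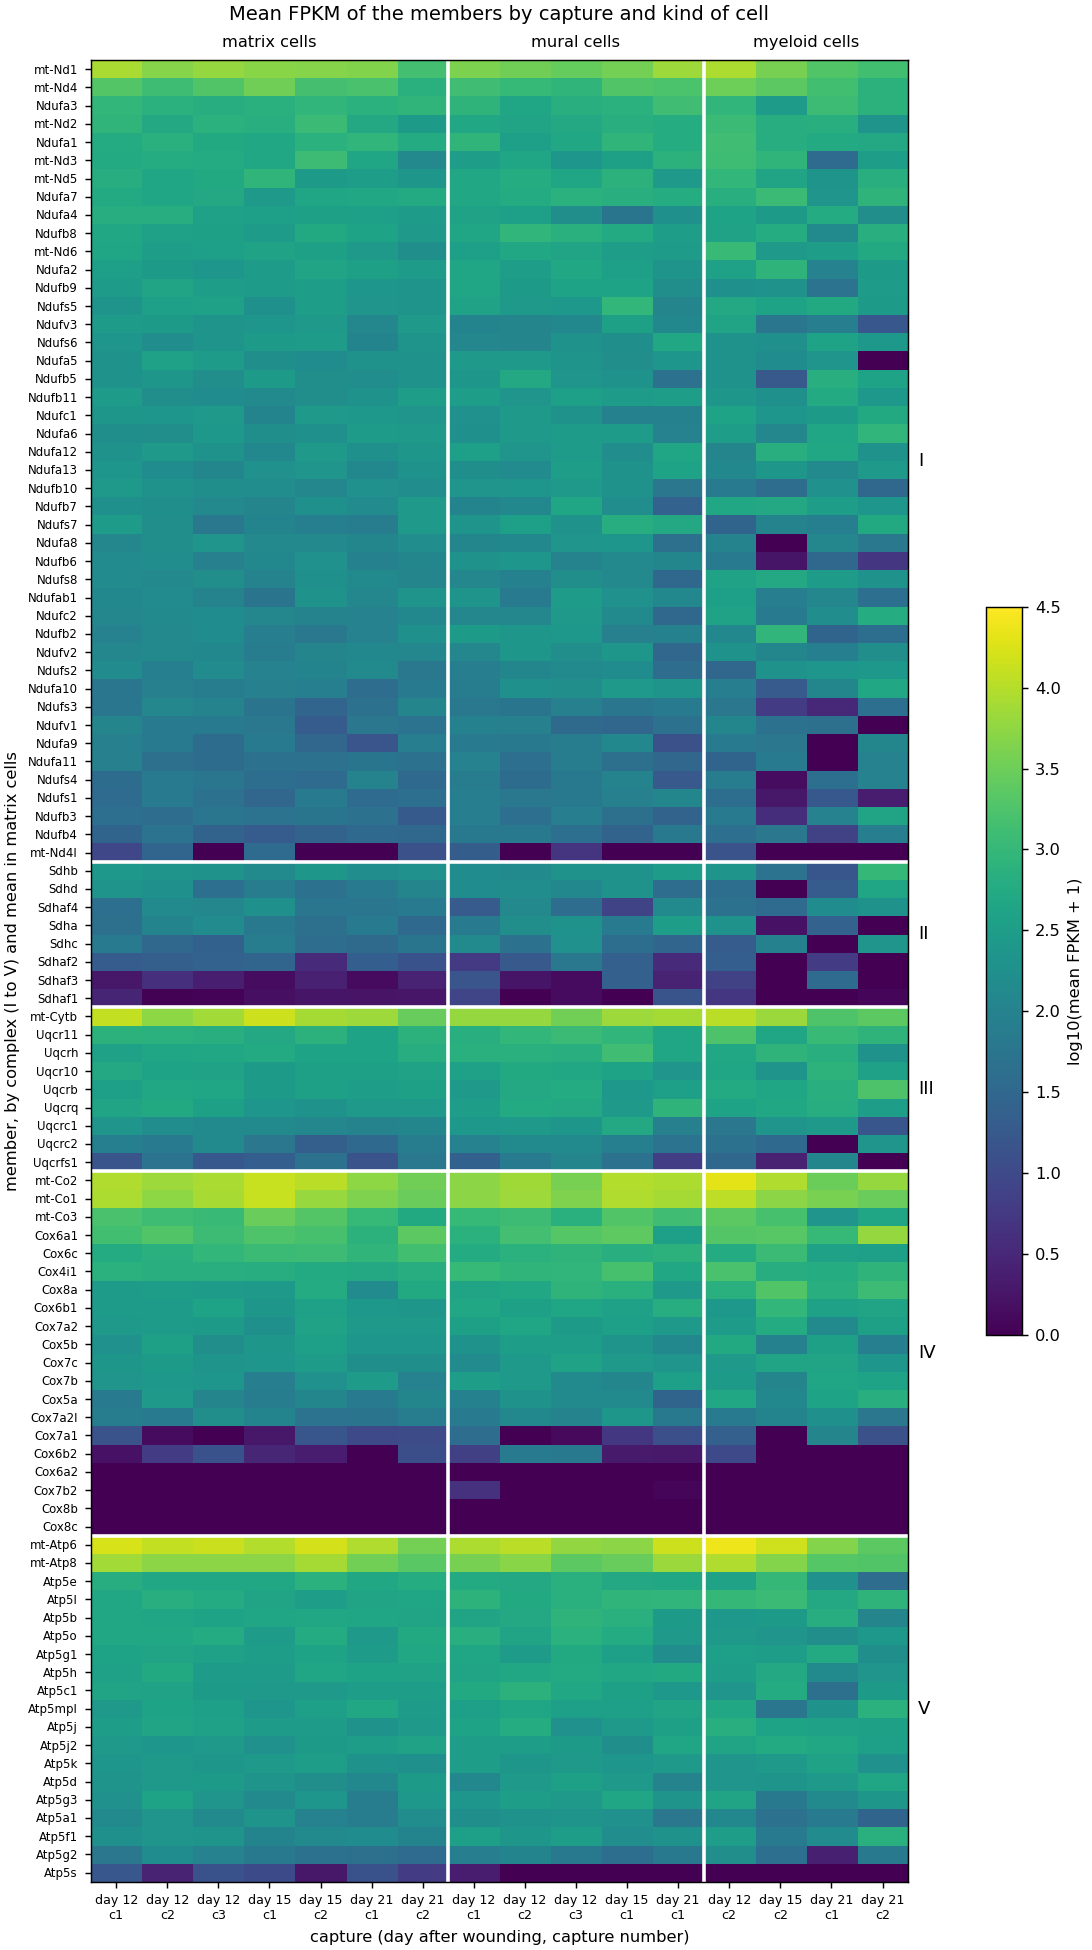
Each row is a member, grouped by complex I to V and ordered by its mean in matrix cells, and each column is a capture of matrix, mural or myeloid cells (c1 to c3 are capture numbers). Colour gives log10(mean FPKM + 1) on a scale from 0 to 4.5. The highest member of complexes I, III, IV and V is mitochondrial (mt-) in every column, although other mitochondrial members lie below nuclear ones. Cox6a2, Cox7b2, Cox8b and Cox8c stay at or near 0.

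The mitochondrial share of a cell, the summed FPKM of the 13 genes over that of all genes, overlapped between the 3 kinds. The mean over captures was 5.72% ± 1.76 (SD, n = 7 captures) in matrix, 5.01% ± 1.41 (n = 5) in mural and 4.63% ± 3.18 (n = 4) in myeloid cells. In matrix cells the capture means were 7.54%, 5.33% and 6.19% at day 12, 7.54% and 5.88% at day 15 and 5.18% and 2.37% at day 21. The medians over cells were 3.86%, 4.29% and 4.33% at day 12, 4.23% and 3.89% at day 15 and 3.54% and 2.41% at day 21. Means exceeded medians in all captures but day 21 capture 2. Of 214 matrix cells, 16 had more than 15% of their FPKM on genes of the mitochondrial genome. These were 5, 1 and 1 cells at day 12, 7 and 1 at day 15 and 1 and 0 at day 21. The corresponding numbers were 1 of 58 mural and 3 of 29 myeloid cells.

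**Figure D2:**
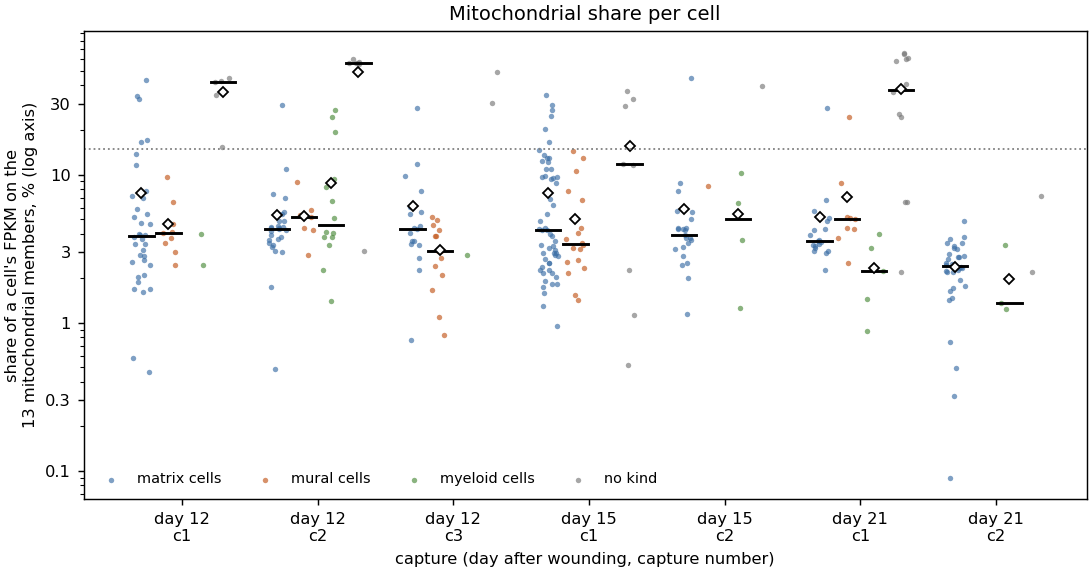
Each point is a kept cell, placed by capture and kind on the horizontal axis and by the percent of its FPKM on the 13 mitochondrial members on a log axis. Bars are medians and diamonds are means over cells, and the dotted line is at 15%. Among matrix cells those of day 21 capture 2 have the lowest median, 2.41%, the myeloid cells of that capture have 1.35%, and cells of no kind have the highest shares.

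The 87 nuclear genes added up to 20645 ± 2110 FPKM in matrix (SD, n = 7 captures), 24288 ± 3350 in mural (n = 5) and 26911 ± 3681 in myeloid cells (n = 4). The nuclear sum of a capture was higher in mural than in matrix cells in 5 of 5 captures (mean log2 ratio 0.26 ± 0.23) and in myeloid cells in 4 of 4 (0.35 ± 0.13). Summed FPKM of all genes differed too, from 776942 ± 44646 in matrix to 819374 ± 42587 in mural and 965481 ± 67632 in myeloid cells. With every cell scaled to the same total, the nuclear sum was higher in 3 of 5 captures for mural cells (0.16 ± 0.20) and in 1 of 4 for myeloid cells (-0.02 ± 0.15), so that the higher sum of myeloid cells was not seen as a share. The mitochondrial sums were 50652 ± 18407, 41443 ± 11367 and 46734 ± 35563 FPKM, with no order beyond the spread. A median of 67 of the 87 nuclear members was above 0 per matrix cell, 65.5 per mural and 59 per myeloid cell.

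Across cells, mitochondrial members moved together more closely than nuclear ones. Within the matrix cells of a capture the median Spearman correlation between pairs of mitochondrial members ranged from 0.31 to 0.69 over the 7 captures of 18 to 57 cells, and between pairs of nuclear members from 0.046 to 0.31. Nuclear pairs came only from the 65 to 78 members above 0 in many cells of the capture, mitochondrial pairs from all 13. Mitochondrial members also had higher levels, with a median of 1952 FPKM against 183 in matrix cells. The part of level in the correlations was not tested. The cells of a capture share their depth differences and each cell's values share a total of fragments, and the mitochondrial genes come from common precursors. In matrix cells the nuclear and mitochondrial sums of a cell were related by -0.40 to -0.017 over the captures, and the mitochondrial sum and the estimated fragments by -0.62 to 0.15. The sums were related by -0.40 to 0.50 in mural cells and by 0.35 in the 14 myeloid cells of day 12 capture 2. These are descriptions and were not tested.

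In mural against matrix cells, the question is whether the Rgs5-high cells of the wound differ from the collagen-producing ones in respiratory genes. Among all 13841 genes tested, 1.76% passed an adjusted p of 0.05 (limma, 141 higher and 103 lower), and the median gene had a log2 difference of -0.19. Of 96 members tested, 0 were higher and 1 was lower. The median was 0.19 for the 83 nuclear members, of which 55 were positive, and -0.43 for the 13 mitochondrial ones, of which 12 were negative. Leaving out a capture gave nuclear medians from 0.09 (without day 12 capture 3, 49 positive) and 0.11 (without day 15 capture 1, 52 positive) to 0.29 (without day 21 capture 1, 65 positive). The mitochondrial median was -0.25 without day 12 capture 3, -0.28 without day 12 capture 1 and -0.69 without day 21 capture 1. It turned to 0.13, with 2 of 13 negative, when cells over 15% mitochondrial were left out, and to -0.03 with log values averaged over cells. In the fit over all kept cells the positive member was mt-Nd6, at 0.12, and the lowest p of the 13 was that of mt-Nd4 (-0.55, SE 0.18, adjusted p = 0.175).

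The member that passed was Atp5s. Its mean in matrix cells was 15.7, 1.78 and 12.6 FPKM at day 12, 9.37 at day 15 and 12.7 at day 21 in the 5 captures used, and in mural cells it was 1.25, 0, 0, 0 and 0. The log2 difference on log2(mean FPKM + 1) was -3.05 (SE 0.65, adjusted p = 0.0447, limma), lower in 5 of 5 captures. It rests on few cells, since Atp5s was above 0 in 20 of 214 matrix and 1 of 58 mural cells. With a mural mean of 0.251 FPKM over captures, Atp5s reached the mean of 1 FPKM needed for testing only through matrix cells. It could thus only have been called lower. The call was lost without each of the 5 captures in turn (adjusted p 0.0648 to 0.162), with a pseudocount of 10 (0.149), with no filter on low values (0.247), without cells over 15% mitochondrial (0.182), with log values averaged over cells (0.176) and without the variance trend (0.0533).

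Ndufa4 had the next lowest p. It was singled out after its values were seen. Matrix means were 629.8, 647 and 375 FPKM at day 12, 340 at day 15 capture 1 and 341 at day 21 capture 1, and the mural means of the same captures were 386, 346, 165, 56.2 and 180. Mural cells were lower in 5 of 5 captures, by -1.26 (SE 0.32, adjusted p = 0.0916, limma), and the adjusted p ran from 0.0059 with log values averaged over cells to 0.644 without limits on fragments and genes. It was above 0 in 194 of 214 matrix and 36 of 58 mural cells. The promoter shown above held none of the motifs sought, which is no statement about its control.

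Ndufa4 has a paralogue, Ndufa4l2, that can take its place in complex IV, and Cox4i1 has the oxygen-regulated isoform Cox4i2. Neither belongs to the 100 genes. Both rose in mural cells, Cox4i2 by 7.77 (adjusted p = 0.000224) and Ndufa4l2 by 6.21 (adjusted p = 0.00884, limma). Cox4i2 had 295, 230.5, 522, 423 and 555 FPKM in mural and at most 5.55 in matrix cells of these captures, and Ndufa4l2 had 543, 630, 639, 850.3 and 277 against at most 52.0. Cox4i1 itself was higher in mural cells in 4 of 5 captures without passing the test. It had 1045, 893, 911, 1554 and 481 FPKM in mural and 753, 653, 697, 632 and 525 in matrix cells, a difference of 0.50 (SE 0.22, adjusted p = 0.342), so that mural cells held RNA of both forms in every capture used.

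Of the 96 members, 10, all nuclear, were higher in mural cells in all 5 captures, 10.4% against 5.07% of all genes, and 2 were lower in all 5, 2.08% against 8.6%. The 10 were Ndufa10, Ndufb4, Ndufb6 and Ndufb11 of complex I, Sdha of complex II, Uqcrh and Uqcrc2 of complex III, Cox6b1 and Cox8a of complex IV and Atp5f1 of complex V, listed after their values were seen. The 2 were Atp5s and Ndufa4. At an unadjusted p under 0.05, 9 members were higher and 6 lower, beside 5.04% and 9.46% of all genes. Cox8a, a small subunit at the edge of complex IV, had 423, 500, 854, 726 and 268 FPKM in mural and 293, 332, 294, 256 and 149 in matrix cells. Its difference of 1.00 (SE 0.26) did not pass (adjusted p = 0.101).

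By complex, the medians of the nuclear members were 0.01 for complex I, 0.47 for II, 0.45 for III, 0.28 for IV and 0.19 for V, each above the median of all genes in this fit. That median moved with the setting. Among genes of at least 10 FPKM it was -0.05, beside 0.16 for the nuclear members. With log values averaged over cells it was 0.01, beside 0.25. Complex III was the most even, with 8 of 8 nuclear members positive, and mt-Cytb, the mitochondrial member of that complex, at -0.56. Scaling cells to a common total gave 0.10 for all nuclear members and -0.29 for all genes. Without the mural cells that had Col1a1 at 1000 FPKM or more, the nuclear median was 0.07, that of complex IV turned to -0.03, that of all genes was -0.70, and mt-Atp6 was called lower beside Atp5s. Without day 21 capture 1, the calls were mt-Atp6 and mt-Nd1, both lower. In that capture the log2 ratio of the mitochondrial sums, mural to matrix, was 0.58 against -0.89, -0.03 and -1.08 at day 12 and -0.68 at day 15. Of its 9 mural cells, 1 had over 15% mitochondrial, and the highest share on the 13 genes was 24.5%.

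**Figure D3:**
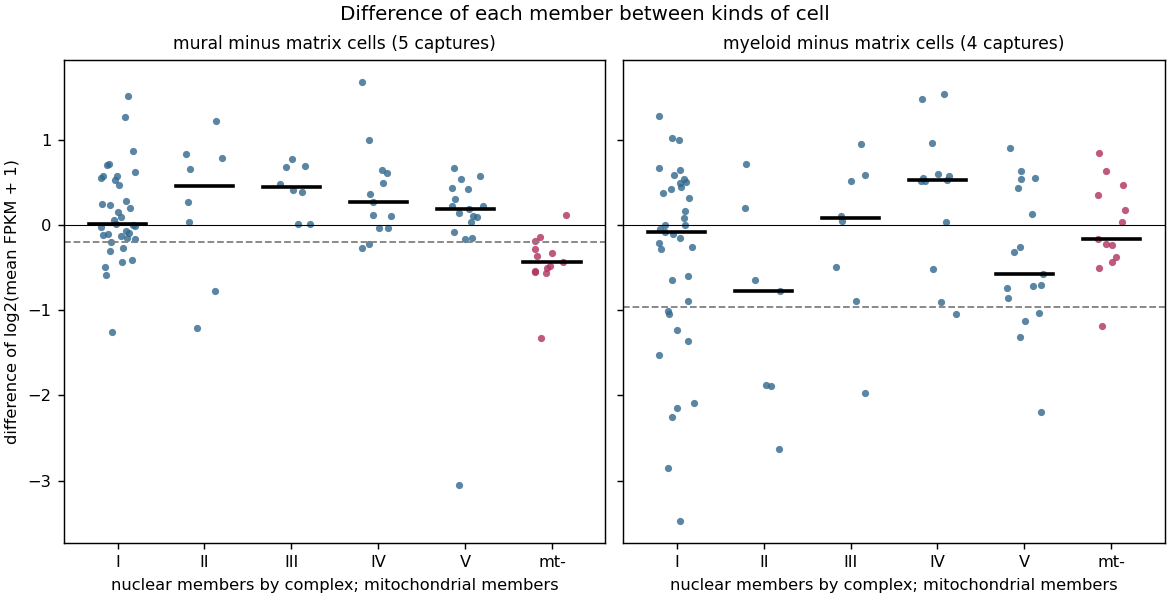
Each point is a member, placed by complex (nuclear members) or under mt- (mitochondrial members), and the vertical axis is its difference of log2(mean FPKM + 1) from matrix cells, averaged over captures, for mural cells on the left and myeloid cells on the right. Bars are medians and the dashed line is the median of all genes, -0.19 and -0.96. The mt- median in mural cells is -0.43, and it turns to 0.13 without cells over 15% mitochondrial.

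The Tyrobp-high myeloid cells were compared with matrix cells in 4 captures of 14, 4, 5 and 3 myeloid cells. Of 13073 genes, 4.54% passed (194 higher and 400 lower), and the median gene was at -0.96. Of 95 members, 0 passed. At an unadjusted p under 0.05, 1 member was higher and 3 were lower, beside 4.28% and 21.8% of all genes. The median was -0.06 for the 82 nuclear and -0.16 for the 13 mitochondrial members, both above the median of all genes. With log values averaged over cells the nuclear median was -0.76, below that of all genes at -0.22, and with no filter on low values the mitochondrial median equalled that of all genes at -0.16. Over the alternatives the mitochondrial median ran from -0.56 to 0.16 and the nuclear one from -0.76 to 0.10. With cells scaled to a common total the medians were -0.40, -0.40 and, for all genes, -1.17, and 212 genes were higher and 920 lower. Scaled on nuclear genes, 201 were higher and 804 lower.

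Complex IV and complex V lay farthest apart in sign and number among the larger sets of nuclear members. The median was 0.53 for complex IV, with 10 of 13 positive, and -0.57 for complex V, with 6 of 17 positive, while complex II had -0.77 and complexes I and III -0.07 and 0.08. Scaling to a common total left complex IV at 0.18 and averaging log values at -0.06. The summed FPKM of the nuclear members of complex V, which weighs the abundant ones, had a mean log2 ratio of 0.02 ± 0.09 (SD, n = 4 captures), and of -0.34 ± 0.12 with cells scaled to a common total. That of complex IV was 0.56 ± 0.19, and 0.18 ± 0.23 when scaled. The difference between the complexes was not tested.

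Cox8a had the lowest p of the members in this comparison. It had 332, 578, 149 and 531 FPKM in matrix cells of day 12 capture 2, day 15 capture 2 and both captures of day 21, and 710, 1892, 688 and 1213 in the myeloid cells. Every myeloid value exceeded the matrix value of its capture and all 4 matrix values. The difference was 1.55 (SE 0.43, adjusted p = 0.0584), with an adjusted p from 0.0453 to 0.541 over the alternatives, and it passed with a pseudocount of 0.1 (0.0492), with genes of at least 10 FPKM (0.0488), without cells over 15% mitochondrial (0.0472) and over protein-coding genes alone (0.0453). Cox6a1 and Cox4i1 were higher in 4 of 4 captures too, by 0.58 and 0.53, with adjusted p values of 0.209 and 0.418, and Cox6c was lower in 4 of 4 by -0.90 (adjusted p = 0.215). Of the 95 members, 9 were higher and 9 lower in 4 of 4 captures. The share of all genes is not given, so these counts say nothing about the members as a set.

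The members with the next lowest p were lower in myeloid cells. Ndufb6, an accessory subunit of complex I, had 159, 189, 93.3 and 113 FPKM in matrix and 73.8, 0.77, 30.6 and 4.13 in myeloid cells. It was lower in 4 of 4 captures, by -3.47 (SE 1.15, adjusted p = 0.0908). Its adjusted p (limma) ran from 0.00801 to 0.626 over the settings. It passed only with log values averaged over cells, where Atp5b, Atp5o, Ndufa5 and Ndufa8 were called lower too. Ndufs1, the largest subunit of complex I, had 74.4, 68.2, 37.0 and 43.5 FPKM against 41.6, 0.938, 16.1 and 1.29 (-2.85, SE 1.13, adjusted p = 0.141). Sdha, the flavoprotein of complex II, had 105, 44.0, 74.4 and 33.7 against 194, 0.67, 25.0 and 0, lower in 3 of 4 captures (-2.63, SE 1.22, adjusted p = 0.196). Atp5s was at 0 in the myeloid cells of all 4 captures (-2.20, SE 0.82, adjusted p = 0.123). Here too it entered the test only through matrix cells and could only have been lower. For Ndufb6, Ndufs1 and Sdha the lowest values were those of day 15 capture 2 and day 21 capture 2, which held 4 and 3 myeloid cells.

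**Figure D4:**
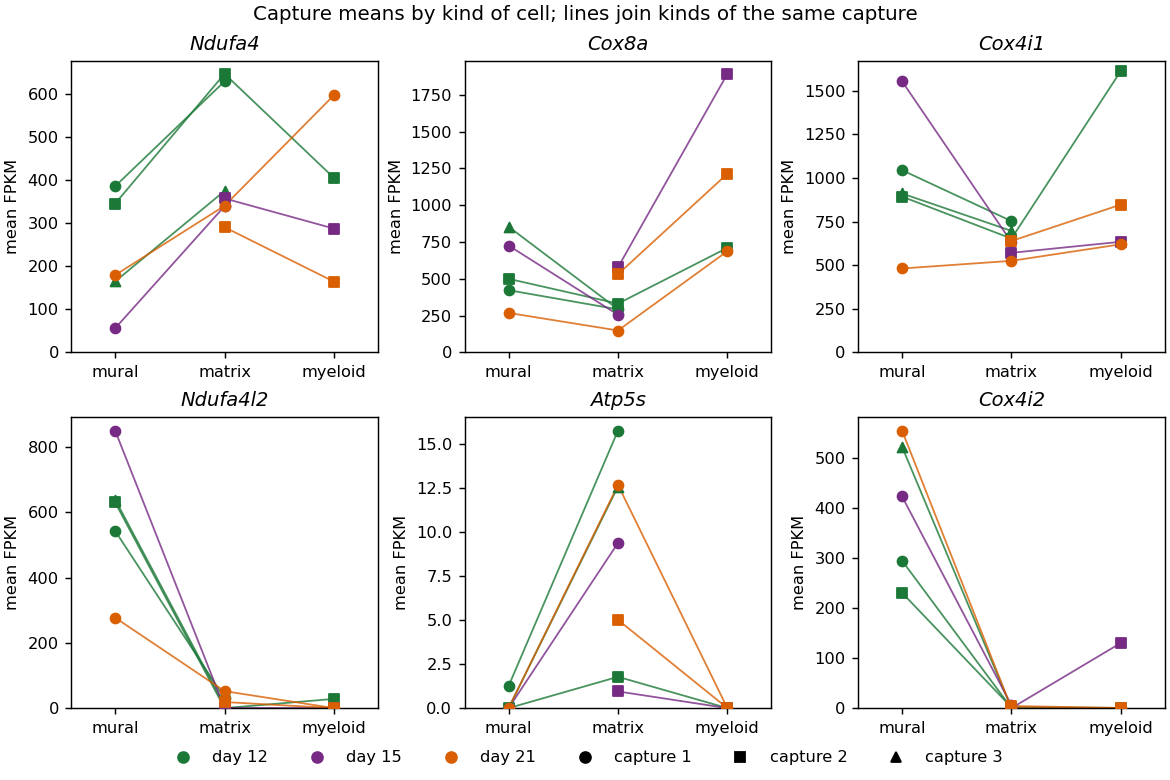
Each panel is a gene and each point the mean FPKM of a kind of cell in a capture, with colour for the day and shape for the capture number, and lines join kinds of the same capture. Cox4i2 and Ndufa4l2 are not among the 100 genes and are shown beside their ubiquitous counterparts Cox4i1 and Ndufa4. Cox8a is higher in mural and myeloid cells in every capture, and Ndufa4 is lower in mural cells in 5 of 5.

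Between days, matrix cells were compared over all 7 captures in 1 fit of 13564 genes. The share of genes that passed was 0 from day 12 to 15, 0.00737% from day 12 to 21 and 0 from day 15 to 21, that is 0, 1 and 0 genes (limma). At an unadjusted p under 0.05, 289 genes were higher and 497 lower at day 15 than at day 12, 340 and 629 at day 21 than at day 12, and 332 and 429 at day 21 than at day 15. None of the 95 members passed in any of the 3. The 3 comparisons share captures. The mitochondrial members were lower at day 21 throughout. All 13 were below day 12, with a median of -0.90, and all 13 below day 15, with a median of -1.201. The medians of the 82 nuclear members were -0.29 and -0.01 and those of all genes -0.20 and -0.03. Without day 21 capture 1 the nuclear medians were -0.08 and 0.19, and without capture 2 they were -0.38 and -0.12. From day 12 to 15 the medians were 0.32 for the mitochondrial and -0.27 for the nuclear members, and the former turned to -0.06 with log values averaged over cells and to -0.21 with the lower limits of the kinds doubled. Without day 15 capture 1 they were 0.0092 and -0.12, and without capture 2 of that day 0.69 and -0.40.

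mt-Co2 led both comparisons with day 21. It had 9334, 6966 and 8618 FPKM at day 12, 13294 and 10783 at day 15 and 5373 and 3391 at day 21. Both captures of day 21 were below every other capture. The difference was -0.95 from day 12 (SE 0.25, unadjusted p = 0.0034, adjusted p = 0.464) and -1.49 from day 15 (SE 0.28, unadjusted p = 0.000256, adjusted p = 0.316).

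The other members with the lowest p values had both captures of day 21 below all others, apart from mt-Nd2. mt-Atp6 had 16770.5, 12105 and 13776 FPKM at day 12, 9549 and 15978 at day 15 and 9339 and 3581 at day 21. mt-Co1 had 8723, 5404 and 8031 at day 12, 13056 and 6273 at day 15 and 4257 and 2942 at day 21. mt-Nd1 had 8632, 4902 and 6052, then 5101 and 4819, then 4503 and 1456. For mt-Atp6, mt-Atp8, mt-Nd1 and mt-Co1 the differences of day 21 from day 12 were -1.28, -1.06, -1.31 and -1.03, with adjusted p values from 0.466 to 0.546 (limma). From day 15 they were -1.72 for mt-Co3, -1.201 for mt-Atp8, -1.35 for mt-Co1 and -1.21 for mt-Nd2, with adjusted p values from 0.613 to 0.784. mt-Co3 had 1604, 1283 and 1129 FPKM at day 12, 3003 and 2002 at day 15 and 1031 and 536 at day 21. mt-Nd2 had 863, 519.8 and 749.7, then 676 and 1184, then 527 and 283, so that 1 capture of day 12 lay below 1 of day 21.

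Both captures of day 21 were below every capture of day 12 for 9 of the 13 mitochondrial and 16 of the 82 nuclear members, where 14.5% of all genes did the same. Against day 15 they were below for 10 and 12, and 16.3% of all genes did so. At an unadjusted p under 0.05, 8 mitochondrial members and 1 nuclear member, Atp5g2, were lower at day 21 than at day 12, beside 4.64% of all genes, and 8 mitochondrial and 0 nuclear ones lower than at day 15, beside 3.16%. The 13 mitochondrial genes come from common precursors and are not 13 separate observations.

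The size of this difference depended on capture 2 of day 21 and on the cells with high shares. Without that capture the median of the mitochondrial members was -0.50 against day 12 and -0.71 against day 15, and without capture 1 it was -1.30 and -1.66. Without cells over 15% mitochondrial the medians were -0.57 and -0.76, with 12 and 13 of 13 negative, and with log values averaged over cells they were -0.70 and -0.64. Matrix cells of day 21 had the most estimated fragments, with capture medians of 2180880 and 2319900 against 1179940 to 1922060 at day 12 and 930735 and 963796 at day 15. The part of depth in the difference was not tested. These values are of matrix cells only. In day 21 capture 1, 13 of 46 kept cells had no kind, with a mean share of 37.8% on the mitochondrial members, and over all kept cells this capture had the highest mean share of the 7, 14.5%, while day 21 capture 2 had the lowest, 2.46%.

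**Figure D5:**
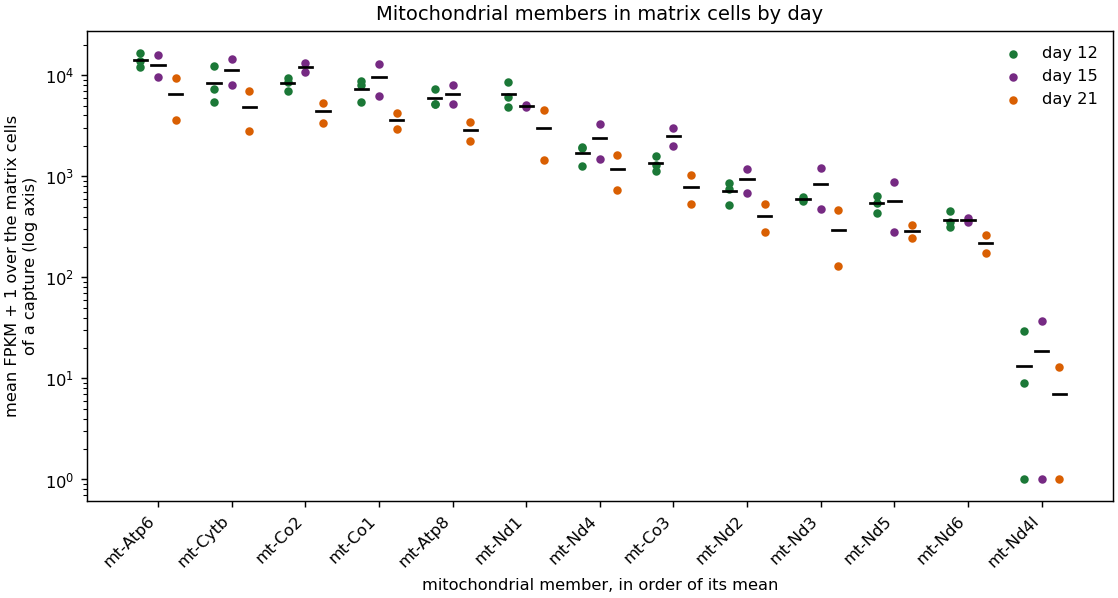
Mitochondrial members are ordered by their mean on the horizontal axis, and each point is the mean FPKM + 1 over the matrix cells of a capture on a log axis, with colour for the day after wounding. Bars are arithmetic means of the captures of a day, drawn on the same log axis. Both points of day 21 lie below all points of day 12 for 9 of the 13 genes, and no gene passed the adjusted test.

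From day 12 to 15 the lowest p belonged to Uqcrq, a small subunit of complex III, with 428, 542 and 353 FPKM at day 12 and 231 and 199 at day 15. The groups did not overlap, and the difference was -1.02 (SE 0.34, unadjusted p = 0.013, adjusted p = 0.729). mt-Co3 differed by 0.89 and mt-Co2 by 0.54, and Uqcrc2, a core protein of complex III, and Ndufs3, of the arm of complex I that faces the matrix, by -1.32 and -1.18, with adjusted p values from 0.820 to 0.866.

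Related genes of mitochondrial function were read from lists. Of 37 assembly factors, 13 enzymes of the citric acid cycle, the pair cytochrome c (Cycs) and cytochrome c1 (Cyc1), 7 carriers and channels and 15 regulators of mitochondrial biogenesis and mitochondrial DNA expression, 0 passed between days and 0 in mural cells. In myeloid cells 1 passed, Ucp2, an inner membrane carrier known from immune cells, which rose by 4.90 (SE 0.97, adjusted p = 0.0241, limma). The list medians in mural cells were -0.38 for assembly factors, -0.01 for the cytochromes, 0.23 for the cycle, 0.42 for carriers and -0.24 for regulators, beside -0.19 for all genes. In myeloid cells they were -1.43, -0.83, -1.54, 0.08 and -1.62, beside -0.96 for all genes. The nuclear members of the complexes, at -0.06, were thus higher in that fit than the cycle and the assembly factors as listed, a contrast that was not tested. Sdhaf1 to Sdhaf4 are in both the members and the assembly factors. With log values averaged over cells the nuclear median was -0.76, and no list median is given for that setting. Between days 12 and 21 the list medians were -0.49, -0.48, -0.28, -0.12 and 0.47 in the same order.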

How the data were processed

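The deposited values are FPKM per gene and cell. The authors aligned paired reads with Bowtie 1.0.0 to mm10 with GENCODE mouse release 13 and quantified them per gene with RSEM. They do not name the unit, which was read from the values. Wells with more than 1 cell had been set aside under the microscope. Matrices were matched to captures by day and number in their names and the sample titles, although the descriptions for day 12 capture 3 name the matrix of capture 2. Members were found by symbol in GENCODE M21 (GRCm38). The values are not counts, so no count test was run. Fragments per cell were estimated from the steps of FPKM in 9420 genes of at least 1000 bases, for a fragment length of 300 bases, and cells with few fragments were left out.

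FPKM was averaged over the cells of a kind in a capture with at least 3 cells, log2(mean + 1) was taken, and genes whose mean reached 1 FPKM entered limma 3.58.1 (R 4.3.3, variance trend, Benjamini-Hochberg over all genes tested, threshold 0.05). Mural and myeloid fits kept the capture as a block, and days were compared in 1 fit of the matrix cells. Scripts ran in Python 3.11.15 and were tested on simulated data. Named members were all mitochondrial genes, the highest and lowest per complex, the isoform sets, and members past the threshold or else the 5 with the lowest p. Others are said to be chosen after their values were seen. The members and lists were chosen with earlier results of these data known. Same-numbered captures of different days were not related (correlation of deviations from 0.0039 to 0.032). The alternatives were other pseudocounts, filters, scalings, limits of kinds, per-cell averaging, no variance trend and leaving out captures. Those on Col1a1 in mural and myeloid cells, on protein-coding genes and on scaled sums were chosen after seeing the data.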

Additional observations from a re-analysis of the deposited data

Results flagged for a closer look

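Among 92 groups of 4 to 10 captures, 3 had a capture far from the others, and chance gives about 1 in 20. For the summed nuclear members of complex V in myeloid against matrix cells, day 15 capture 2 had a log2 ratio of 0.153 while the other 3 captures lay between -0.04 and -0.01. For Ndufa4 in mural against matrix cells, day 15 capture 1 had a log2 difference of -2.58, farther from 0 than the other 4. For mt-Nd5 in the same comparison, day 12 capture 2 had 0.48, the only positive value of 5.

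The difference of mt-Nd2 between mural and matrix cells was negative in all 3 captures of day 12 and positive in both later ones, with means 0.68 apart on the log2 scale, and this contrast was not tested.

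The 38 kept cells of no kind, which enter no comparison, had a mean of 33.5% of their FPKM on the 13 mitochondrial members, and 27 of them had over 15% on the mitochondrial genome. Their median of 559196 estimated fragments and 2795.5 genes was below that of the other kinds.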

How the results depend on the processing

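For mural against matrix cells 244 genes passed, and 23 with no filter on low values, 607 with log values averaged over cells, 101 without the variance trend, 604 without cells of high Col1a1 and 102 to 243 without a capture. Members called were 1, and 0 with a pseudocount of 10, no filter, cells over 15% mitochondrial left out or no trend, 2 with averaged logs or without high Col1a1, and 0 to 2 without a capture. For myeloid cells 594 genes passed, and 147 with a pseudocount of 10, 31 with no filter, 1132 scaled to a total, 1005 scaled on nuclear genes, 992 with no replicate block, 1211 without high Col1a1 and 66 to 201 without a capture. Members called were 0, and 1 with a pseudocount of 0.1, at 10 FPKM or over protein-coding genes, 2 without cells over 15% and 5 with averaged logs. From day 12 to 15, 0 genes became 3 at 10 FPKM, 12 with averaged logs and 1 over protein-coding genes. From day 12 to 21, 1 became 0 with a pseudocount of 0.1, no filter, either scaling or the replicate block on the capture number, 5 at 10 FPKM, 50 with averaged logs, 3 with doubled limits, 7 over protein-coding genes and 0 to 1 without a capture. From day 15 to 21, 0 became 1 with a pseudocount of 10 and 0 to 1 without a capture. With averaged logs mt-Co3 turned to -0.058 (day 12 to 15) and 0.44 (day 15 to 21), and with doubled limits mt-Co2 turned to -0.21 (day 12 to 15). The causes were not tested. Capture numbers did not pair the captures, and few cells per capture limit rarely detected members.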
